A study of Mus musculus with 2 samples.

Results

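The tricarboxylic acid (TCA) cycle oxidizes acetyl-CoA in the mitochondrial matrix and hands the electrons to the respiratory chain, mostly as NADH to complex I. Photoreceptors keep a dense pack of mitochondria in the inner segment, while much of the glucose they take up leaves as lactate. Complex I, of which ND6 is a subunit encoded by mitochondrial DNA (mtDNA), is where the NADH made by these enzymes is spent. Here 9 nuclear genes of the cycle were followed, namely *Cs*, *Idh3a*, *Idh3b*, *Idh3g*, *Idh2*, *Ogdh*, *Suclg1*, *Fh1*, and *Mdh2*, chosen by symbol out of 32285 genes in the count tables. All 9 were found once each, and all 9 had at least 20 unique molecular identifiers (UMIs, 1 per captured RNA molecule) over both libraries.

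The data are 2 droplet-based 3′ scRNA-Seq libraries of whole retina from male C57BL/6J mice aged 7 months, 1 WT and 1 carrying the mtDNA change 13997 G>A, which gives ND6 the substitution P25L (called ND6, or mutant). Both carry the label replicate 1. The mutant mice came from fusion of mtDNA-mutant cytoplasm with female embryonic stem cells and breed through mutant mothers crossed to WT males, so the change is in mtDNA of the whole body and not of 1 cell type, while WT mice came from brother-sister mating. With 1 library per condition no test between conditions was possible, and the 95% intervals given below cover counting error only, not the spread between mice.

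A barcode was kept as a cell when it held over 400 UMIs from over 200 genes and no more than 20% of its UMIs were mtDNA-encoded. This gave 12529 cells in WT (median depth 1878 UMIs) and 18395 in mutant (1416 UMIs). The mtDNA limit alone took out 45.9% of WT and 17.3% of mutant barcodes that passed the others. The libraries shared 59 cell barcodes, or 0.471% of WT and 0.321% of mutant cells. Clusters were called rod-like (10444 WT and 14050 mutant cells), cone-like (626 and 1131), bipolar-like (242 and 647), amacrine-like (82 and 302), Müller-like (29 and 11), microglia- or macrophage-like (263 and 149), and retinal pigment epithelium (RPE)-like (338 and 958) from their markers. The larger of the microglia- or macrophage-like clusters was led by *Igkc*, an immunoglobulin gene, beside *Tyrobp* and complement genes. The rod-like class includes a cluster of 274 WT and 601 mutant cells led by hemoglobin genes, without which the median ratio of mutant over WT of the 9 genes in rod-like cells, given below, was -0.01. No retinal ganglion cell-like or horizontal-like cluster was found, and 505 WT and 1147 mutant cells of a *Nefl*- and *Glul*-led cluster stayed unnamed. The 9 genes were left out of the clustering.

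Rod RNA was present in every class. The 12 rod markers together stood at 91750 CPM in WT and 94900 CPM in mutant rod-like cells (CPM is the UMIs of a gene scaled to 1e6 UMIs of a class in a library and the scale of all levels below), but also 68830 and 75740 CPM in cone-like cells and 35770 and 46250 CPM in RPE-like cells. Levels are therefore given for all cells of a class and again for its rod-poor cells, in which the rod markers took at most 25% of their share in the median rod-like cell of the same library. In rod-poor cone-like cells (120 WT and 149 mutant) the rod markers were at 20660 and 20250 CPM while the 9 cone markers stood at 42270 and 43250 CPM, against 11310 and 10440 CPM in all cone-like cells. The share of these results that rod RNA accounts for was not tested.

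All 9 are protein-coding, and positions are from the GENCODE annotation of GRCm38 (mm10). *Cs* is at chr10:128337734-128362479, *Idh3a* at chr9:54586334-54604661, *Idh3b* at chr2:130279309-130284547, *Idh3g* at chrX:73778963-73786897, *Idh2* at chr7:80094846-80115392, *Ogdh* at chr11:6291633-6356642, *Suclg1* at chr6:73248382-73276911, *Fh1* at chr1:175600374-175625635, and *Mdh2* at chr5:135778480-135790398. *Idh3b* overlaps *Nop56* and *Fh1* overlaps *Kmo*, each on the opposite strand, while *Cs* and *Idh2* each overlap 1 predicted gene (*Gm23182* and *Gm45203*) on their own strand. Whether reads in those overlaps were counted by strand is not given in the sources used here.

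The sharpest division among classes was that of *Idh2*, which encodes the mitochondrial isocitrate dehydrogenase that makes NADPH rather than NADH. In rod-like cells it stood at 3.33 CPM in WT (120 UMIs, 95% interval 2.76 to 3.98) and 3.63 CPM in mutant (128 UMIs, 3.03 to 4.31). In cone-like cells it stood at 5.32 and 4.89 CPM. The measured levels of the other classes were higher in both libraries, though the WT interval of bipolar-like cells (5.37 to 15.2) overlapped that of cone-like cells (4.02 to 6.91). Bipolar-like cells had 9.39 and 15.7 CPM, amacrine-like cells 16.2 and 19.3 CPM, and Müller-like cells 51.5 and 51.7 CPM. Microglia- or macrophage-like cells had 37.7 CPM in WT but 17.1 CPM in mutant, and RPE-like cells 42.2 and 17.1 CPM. Among neighbours in this order, the intervals of amacrine-like and bipolar-like cells overlapped in both libraries. Those of amacrine-like and microglia- or macrophage-like cells did so too, as did those of Müller-like, microglia- or macrophage-like, and RPE-like cells. In mutant the intervals of rod-like and cone-like cells overlapped. There the intervals of RPE-like (11.5 to 24.6) and microglia- or macrophage-like cells (6.27 to 37.2) also overlapped those of bipolar-like and amacrine-like cells.

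In rod-poor cells the levels of the highest WT classes were higher still. *Idh2* stood at 65.8 CPM in WT RPE-like cells (68 UMIs, 51.1 to 83.5), 64.6 CPM in WT microglia- or macrophage-like cells (26 UMIs, 42.2 to 94.7), and 86.2 CPM in WT Müller-like cells (18 UMIs, 51.1 to 136). Against rod-like cells, the log2 ratio in RPE-like cells was 4.30 in WT (3.85 to 4.75) and 2.94 in mutant (2.20 to 3.62). Rod-poor cone-like cells held only 5 WT and 4 mutant *Idh2* UMIs (7.64 and 7.57 CPM), and their intervals against rod-like cells ran from -0.45 to 2.46 and from -0.84 to 2.45, so that a difference between cones and rods was not detectable at this depth. Barcodes with 10 to 100 UMIs, taken as free RNA, held 0 *Idh2* UMIs in WT, where 3 UMIs would be 13.3 CPM, and 6 in mutant (15.4 CPM, 5.66 to 33.6). The upper 95% limits for free RNA were 16.3 CPM in WT and 33.6 CPM in mutant. Below the limit of their own library lay the levels of rod-like, cone-like, and bipolar-like cells in both libraries. Amacrine-like cells of WT (16.2 CPM) lay just below it too, as did every mutant class but Müller-like cells. The rod-poor bipolar-like and amacrine-like cells of WT (11.5 and 11.6 CPM) and the rod-poor bipolar-like, amacrine-like, microglia- or macrophage-like, and RPE-like cells of mutant (21.7, 24.7, 24.5, and 27.9 CPM) lay below it as well, while the WT Müller-like, microglia- or macrophage-like, and RPE-like cells lay above it. The part of free RNA in them was not tested.

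*Idh1*, the cytosolic NADP-dependent counterpart, did not follow *Idh2*. It was at 51.0 CPM in WT and 51.7 CPM in mutant rod-like cells, and at 51.5 and 45.5 CPM in all RPE-like cells, rod RNA included. In rod-poor cone-like cells it was at 19.9 CPM in WT (13 UMIs) and 17.0 CPM in mutant (9 UMIs), below the rod-like interval of 48.7 to 53.4 CPM in WT and of 49.4 to 54.1 CPM in mutant. Rod-like cells thus had *Idh1* near the level of all RPE-like cells while their *Idh2* was among the lowest of the named classes. The part of rod RNA in the RPE-like *Idh1* level was not tested.

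**Figure D1:**
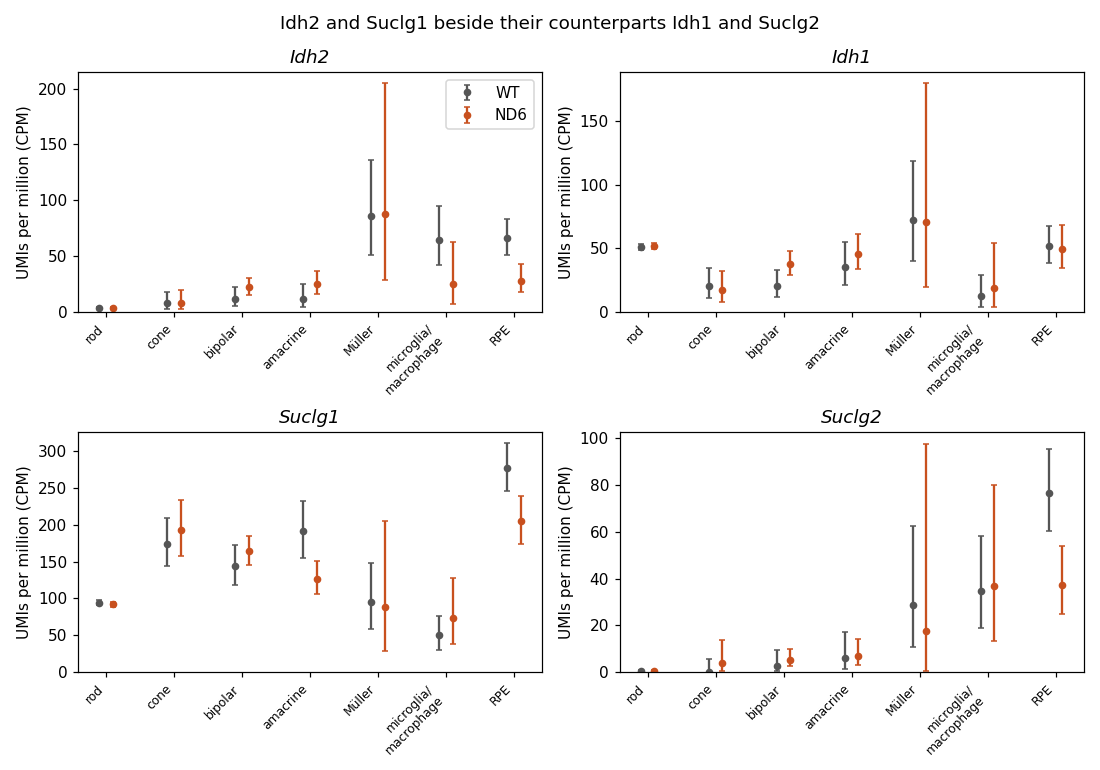
Levels (CPM, vertical axes from 0) of *Idh2*, *Idh1*, *Suclg1*, and *Suclg2* by cell class, with all rod-like cells and the rod-poor cells of the other classes; points are the WT (grey) and mutant (orange) library and bars are exact Poisson 95% intervals. *Idh2* is at 3.33 and 3.63 CPM in rods and 65.8 CPM in WT RPE-like cells, while *Idh1* is near 51 CPM in WT rods.

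For *Idh2* and for *Cs*, which passed 2-fold against rod-like cells in both libraries in no class, the 250 bases before the RefSeq start (GRCm38.p6) are shown to let a reader compare the sequence at their starts. *Idh2* is on the minus strand at chr7:80115351-80115600 and *Cs* on the plus strand at chr10:128337477-128337726. Both are printed 5′ to 3′ on the strand of the gene, and capitals mark a core site of the photoreceptor homeobox factor CRX (TAATCC), a GC box (GGGCGG), or a CCAAT box (CCAAT), on either strand.
Idh2: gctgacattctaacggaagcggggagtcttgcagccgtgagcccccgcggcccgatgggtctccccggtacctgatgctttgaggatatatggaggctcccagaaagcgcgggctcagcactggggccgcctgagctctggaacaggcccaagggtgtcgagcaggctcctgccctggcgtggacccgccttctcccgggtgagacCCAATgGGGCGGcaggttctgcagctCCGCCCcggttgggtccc
Cs: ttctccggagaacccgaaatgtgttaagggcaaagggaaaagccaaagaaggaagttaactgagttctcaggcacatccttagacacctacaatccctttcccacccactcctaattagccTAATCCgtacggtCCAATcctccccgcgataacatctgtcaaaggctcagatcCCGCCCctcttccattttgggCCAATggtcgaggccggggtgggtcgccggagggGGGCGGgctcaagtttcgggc
The *Idh2* stretch holds 2 GC boxes and 1 CCAAT box and no TAATCC, and the *Cs* stretch holds 1 TAATCC, 2 GC boxes, and 2 CCAAT boxes. Windows of this kind were found for 8 of the 9 genes (6 of them for *Ogdh*), and none for *Idh3a*. TAATCC was in a window of *Cs* and *Ogdh* and in 6.25% of all 32851 windows. GGGCGG was in windows of 5 of the 8 genes and 32.7% of all windows, and CCAAT in windows of 5 of the 8 and 33.8% of all. A match is a match of letters only, and none of these is shown to be a bound site.

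Isocitrate is also oxidized by the NAD-dependent isocitrate dehydrogenase, a complex of a catalytic alpha subunit (*Idh3a*) with a beta (*Idh3b*) and a gamma (*Idh3g*) subunit. Inherited defects of the alpha or the beta subunit are known causes of retinal degeneration. *Idh3a* stood at 78.1 CPM in WT rod-like cells (75.2 to 81.0) and 68.7 CPM in mutant (65.9 to 71.4). In all cone-like cells it was at 120.1 and 113 CPM, and in rod-poor cone-like cells it reached 217 CPM in WT (142 UMIs, 183 to 256) and 244 CPM in mutant (129 UMIs, 204 to 290). The log2 ratio of rod-poor cone-like over rod-like cells was 1.48 in WT (1.22 to 1.72) and 1.83 in mutant (1.56 to 2.08). Rod-poor amacrine-like cells (182 and 125 CPM) came next in WT, and microglia- or macrophage-like cells were lowest among the classes other than Müller-like cells (37.3 and 36.7 CPM). In rod-poor WT cone-like cells 11.6% of UMIs were mtDNA-encoded against 8.89% in rod-like cells, and in mutant 8.29% against 7.45%.

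The subunits did not run in parallel across classes. In rod-like cells *Idh3b* had more UMIs than *Idh3a*, with a log2 ratio of 0.33 in WT (0.26 to 0.40) and 0.25 in mutant (0.17 to 0.32). In rod-poor bipolar-like cells the ratio was 0.74 (0.38 to 1.11) and 0.77 (0.48 to 1.06). In rod-poor cone-like cells it turned to -0.71 (-1.11 to -0.31) and -0.74 (-1.17 to -0.33), and in rod-poor RPE-like cells to -0.76 (-1.18 to -0.35) and -0.95 (-1.49 to -0.43). These ratios compare UMIs of a pair of genes between classes and do not say which subunit is more abundant. *Idh3b* itself was highest in rod-poor bipolar-like cells of both libraries, at 215 CPM in WT (184 to 250) and 155 CPM in mutant (137 to 175), against 98.0 and 81.4 CPM in rod-like cells, and its interval overlapped that of amacrine-like cells in WT (182 CPM, 147 to 222) and in mutant (138.5 CPM, 116.5 to 163.5), of cone-like cells in mutant (146 CPM, 115 to 182), and of Müller-like cells in WT (134 CPM, 89.0 to 194) and in mutant (6 UMIs). *Idh3g* was at 53.8 and 63.4 CPM in rod-like cells and at 93.3 and 88.9 CPM in rod-poor cone-like cells, a log2 ratio of 0.79 (0.40 to 1.16) and 0.49 (0.04 to 0.90). In rod-poor bipolar-like cells *Idh3g* was at 76.4 CPM in WT and 116 CPM in mutant, and only in mutant did its UMIs exceed those of *Idh3a* there.

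**Figure D2:**
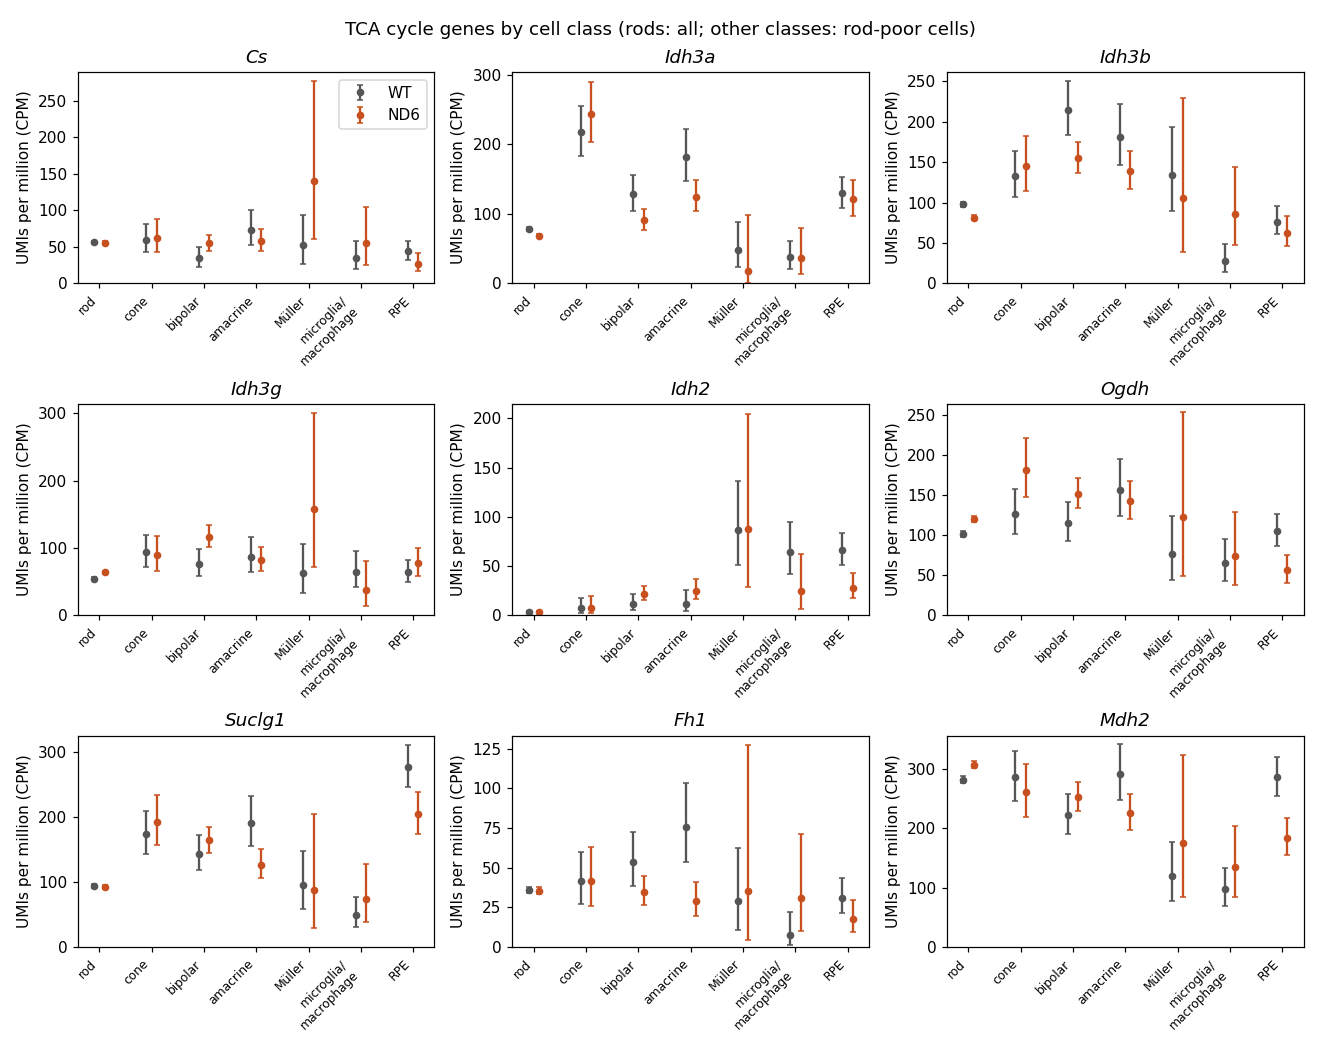
Levels (CPM, vertical axes from 0) of the 9 genes by cell class, with all rod-like cells and the rod-poor cells of the other classes; points are the WT (grey) and mutant (orange) library and bars are exact Poisson 95% intervals. *Idh2* is lowest in rods and cones, *Idh3a* is highest in cone-like cells (217 and 244 CPM), and *Suclg1* is highest in RPE-like cells (278 and 205 CPM).

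*Ogdh* encodes the E1 subunit of the oxoglutarate dehydrogenase complex, which turns 2-oxoglutarate into succinyl-CoA. It was at 101.4 CPM in WT and 120.2 CPM in mutant rod-like cells and at 148 and 173 CPM in cone-like cells, a log2 ratio of 0.55 in WT (0.46 to 0.63) and 0.53 in mutant (0.46 to 0.60). In rod-poor cone-like cells it was at 127 and 182 CPM, and the WT ratio of 0.32 (-0.01 to 0.64) then included 0. Rod-poor microglia- or macrophage-like cells had 64.6 and 73.4 CPM, and rod-poor RPE-like cells 105 CPM in WT but 55.9 CPM in mutant. *Ogdhl*, a paralogous gene of nervous tissue, was at 11.7 CPM in WT rod-like cells and 35.2 CPM in rod-poor WT cone-like cells (23 UMIs), and at 3.87 CPM in rod-poor WT RPE-like cells (4 UMIs).

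*Suclg1* encodes the alpha subunit of succinyl-CoA ligase, which pairs with either an ATP-forming beta subunit (*Sucla2*) or a GTP-forming one (*Suclg2*). *Suclg1* was at 94.1 and 91.9 CPM in rod-like cells and at 203 and 167 CPM in RPE-like cells. In rod-poor RPE-like cells it reached 278 CPM in WT (247 to 312) and 205 CPM in mutant (174 to 240), a log2 ratio over rod-like cells of 1.56 (1.38 to 1.74) and 1.16 (0.91 to 1.39). Rod-poor amacrine-like cells followed in WT (191 CPM, and 127 CPM in mutant). Rod-poor cone-like cells followed in mutant (193 CPM, and 174 CPM in WT), where the intervals of cone-like and RPE-like cells overlapped. *Suclg2* was near 0 in photoreceptors. It had 16 UMIs in all 10444 WT rod-like cells (0.444 CPM) and 20 in mutant (0.567 CPM), but 49.3 CPM in WT RPE-like cells (90 UMIs) and 28.3 CPM in mutant (48 UMIs), 18.9 and 17.1 CPM in microglia- or macrophage-like cells, and 21.7 and 25.8 CPM in Müller-like cells (8 and 4 UMIs). Cone-like cells had 5 and 11 UMIs of it (0.475 and 0.726 CPM), and amacrine-like cells 5.39 and 4.30 CPM. *Sucla2* was at 84.3 and 75.7 CPM in rod-like cells and 142 and 108 CPM in RPE-like cells.

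The 3 remaining genes passed 2-fold above rod-like cells in both libraries in no class. *Cs*, which joins acetyl-CoA to oxaloacetate, was at 55.9 and 54.9 CPM in rod-like cells and 75.1 and 73.0 CPM in cone-like cells, but rod-poor cone-like cells had 59.6 and 62.4 CPM, whose intervals included the rod-like values. *Fh1*, the fumarase gene, was at 35.6 and 35.5 CPM in rod-like cells and 32.1 and 29.3 CPM in cone-like cells, but in amacrine-like cells at 68.7 CPM in WT and 31.7 CPM in mutant. *Mdh2*, which makes oxaloacetate from malate, was at 281 and 307 CPM in rod-like cells and lowest in rod-poor microglia- or macrophage-like cells of mutant (135 CPM) and WT (96.9 CPM). Its cytosolic counterpart *Mdh1* was at 380 and 443 CPM in rod-like cells, 697 and 796 CPM in rod-poor cone-like cells, and 978 and 524 CPM in rod-poor amacrine-like cells.

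Counted by a level at least 2-fold above rod-like cells in both libraries, 0 of the 9 genes passed in all cone-like cells, where 5.47% of 12491 genes did. In all bipolar-like, amacrine-like, microglia- or macrophage-like, and RPE-like cells 1 gene passed in each, and in each it was *Idh2*, against 17.7%, 20.9%, 11.3%, and 12.5% of all genes. In rod-poor cells *Idh3a* and *Idh2* passed in cone-like cells (9.49% of genes), *Idh2* in bipolar-like (20%) and amacrine-like (22.3%) cells, *Idh2* in microglia- or macrophage-like cells (13.7%), and *Idh2* and *Suclg1* in RPE-like cells (14.4%). Of these, *Idh2* in cone-like cells rests on 5 and 4 UMIs, and its levels against those of free RNA are given above. In the other direction, *Mdh2* was at least 2-fold lower in rod-poor microglia- or macrophage-like cells than in rod-like cells in both libraries, as were 28.7% of genes. With 9 genes, shares of this size were not read as a property of the cycle.

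Between mutant and WT, the 9 genes differed little over all cells, in all rod-like cells, and in all cone-like cells. The smaller classes, where ratios were larger, and other enzymes of the cycle are given below. Over all cells the median log2 ratio of mutant over WT was -0.05 (*Suclg1*, 95% interval -0.10 to 0.00), beside 0.07 over 15888 genes with at least 20 UMIs. A log2 ratio of 0.5 or more in either direction was reached by 0 of the 9 genes, beside 21.6% of all genes higher in mutant and 8.78% lower. Such shares take in genes from 20 UMIs up, whose ratios carry more counting error. They were not matched in depth to the 9, which held 349 (*Idh2*) to 14780 (*Mdh2*) UMIs in WT. In rod-like cells the median was -0.0046 (*Fh1*, -0.12 to 0.11) beside 0.03 over 13488 genes, and again 0 of 9 passed, against 19.7% of genes higher and 7.95% lower. In cone-like cells the median was -0.09 (*Idh3a*, -0.19 to 0.02) with 0 of 9 past the fold, against 12.3% higher and 8.10% lower. In rod-poor cone-like cells 1 of the 8 genes with at least 20 UMIs passed, *Ogdh*, at 127 and 182 CPM (83 and 96 UMIs, 0.52, 0.08 to 0.96), against 17.0% of genes higher and 12% lower.

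Within this range the genes went different ways. The intervals of *Ogdh*, *Idh3g*, and *Mdh2* lay above 0 in all cells, rod-like cells, and cone-like cells alike, that of *Idh3b* lay below 0 in all 3, and that of *Idh3a* lay below 0 in all cells and rod-like cells but included 0 in cone-like cells. *Ogdh* was higher in mutant, with 111.5 CPM in WT and 136 CPM in mutant over all cells, a log2 ratio of 0.29 (0.24 to 0.33) that was 0.49 with every cell thinned to the lowest depth kept. The ratio was 0.25 (0.18 to 0.31) in rod-like and 0.23 (0.13 to 0.32) in cone-like cells. *Idh3g* was at 56.3 and 66.4 CPM, a log2 ratio of 0.24 (0.17 to 0.31). *Mdh2* was at 271 and 285 CPM, a log2 ratio of 0.07 (0.04 to 0.10). *Idh3b* was lower in mutant, at 101.3 and 86.8 CPM, a log2 ratio of -0.22 (-0.28 to -0.17), and *Idh3a* was at 88.8 and 81.9 CPM, -0.12 (-0.17 to -0.06). So, over all cells, the gamma subunit of the NAD-dependent enzyme was higher and the alpha and beta subunits lower in the mutant library. The intervals of *Cs* (0.01), *Idh2* (-0.06), *Fh1* (-0.07), and *Suclg1* (-0.05) included 0. The cone-like values include the rod RNA given above. In rod-poor cone-like cells *Ogdh* kept its direction, but *Idh3g* was at -0.07 (-0.65 to 0.50), *Mdh2* at -0.13 (-0.46 to 0.19), *Idh3b* at 0.13 (-0.33 to 0.59), and *Idh3a* at 0.17 (-0.19 to 0.52), each with the sign opposite to that in all cone-like cells and with an interval that included 0.

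**Figure D3:**
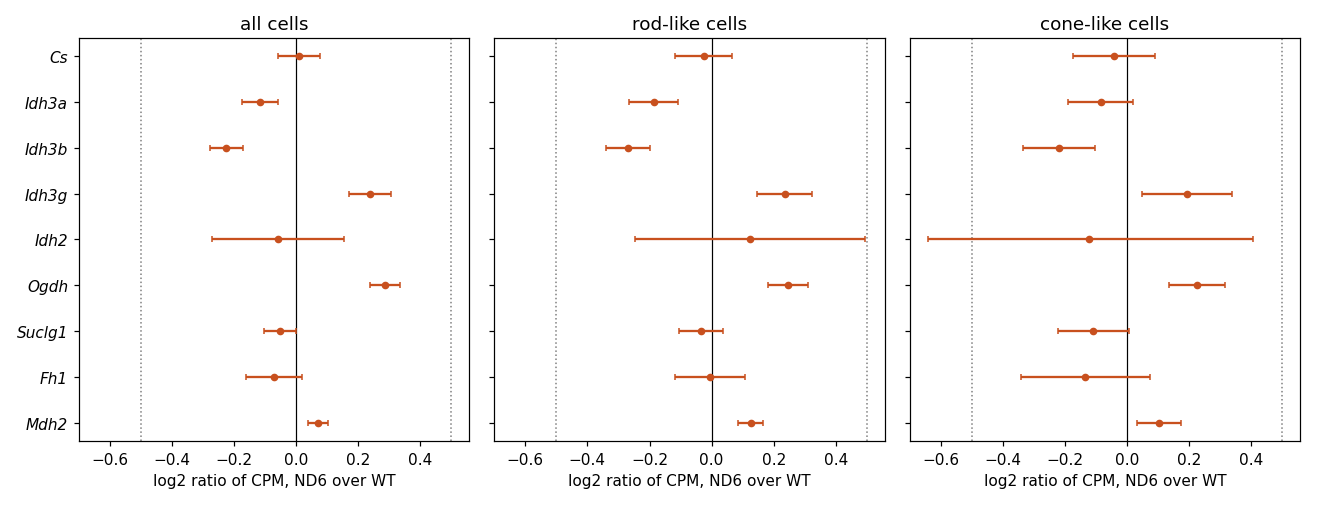
Log2 ratio of CPM, mutant (ND6) over WT, of the 9 genes in all cells, rod-like cells, and cone-like cells; points are the ratios, bars are exact conditional 95% intervals, the solid line is 0, and the dotted lines are -0.5 and 0.5. No point reaches a dotted line, *Ogdh* and *Idh3g* lie above 0 in each panel, and *Idh3b* lies below 0 in each.

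Rods themselves differed in nuclear RNA, judged by *Malat1*, a long noncoding RNA kept in the nucleus. Of WT rod-like cells 6313 had under 0.5% of their UMIs from *Malat1*, 511 had 0.5 to 2%, and 3620 had at least 2%, and in mutant these were 7932, 2528, and 3590. Within WT, *Ogdh* was at 56.5 CPM in the *Malat1*-poor and 119.9 CPM in the *Malat1*-rich rods, a log2 ratio of 1.09 (0.96 to 1.22), and in mutant at 86.5 and 143 CPM, 0.72 (0.62 to 0.83). *Cs* was also higher in the *Malat1*-rich rods, by 0.63 and 0.65. *Mdh2* was lower there, at 361 and 246 CPM in WT and 371 and 256 CPM in mutant (log2 ratios of -0.56 and -0.54), and so was *Suclg1* (-0.41 and -0.54). The median of all genes was higher in the *Malat1*-rich rods by 0.90 in WT and 0.63 in mutant. Of the 9 genes, 8 in WT and 6 in mutant lay below that median, and *Ogdh* lay above it in both.

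The mutant-to-WT ratios were computed again within these groups. *Ogdh* reached a log2 ratio of 0.61 (0.47 to 0.76) in the *Malat1*-poor rods, past the fold used here, and 0.19 (-0.01 to 0.39) and 0.25 (0.17 to 0.33) in the other groups. *Idh3b* ran the same way, at -0.43 (-0.57 to -0.30) in the *Malat1*-poor and -0.12 (-0.22 to -0.03) in the *Malat1*-rich rods. The ratio of *Idh3g* lay between 0.13 and 0.36 and that of *Idh3a* between -0.27 and -0.15 over the 3 groups, with every interval on its side of 0. Grouped by mtDNA-encoded share in steps of 5%, *Ogdh* ran from 0.07 (-0.10 to 0.23) at 10 to 15% to 0.29 (0.00 to 0.57) at 15 to 20%, and *Idh3b* from -0.15 at up to 5% to -0.55 at 15 to 20%. In rods of at most 1000 UMIs, where WT had 1296 and mutant 3146 cells, *Ogdh* (0.80, 54 WT UMIs), *Idh3g* (0.58, 44 WT UMIs), and *Cs* (0.55, 31 WT UMIs) were past the fold, and the interval of *Cs* (-0.03 to 1.18) included 0. For none of these groups of rods is the share of all genes past the fold given here, so the calls cannot be set against it. Depth, *Malat1* share, and mtDNA-encoded share differed between the libraries along with genotype. Their part in these ratios cannot be told apart from that of genotype with 1 library per condition.

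**Figure D4:**
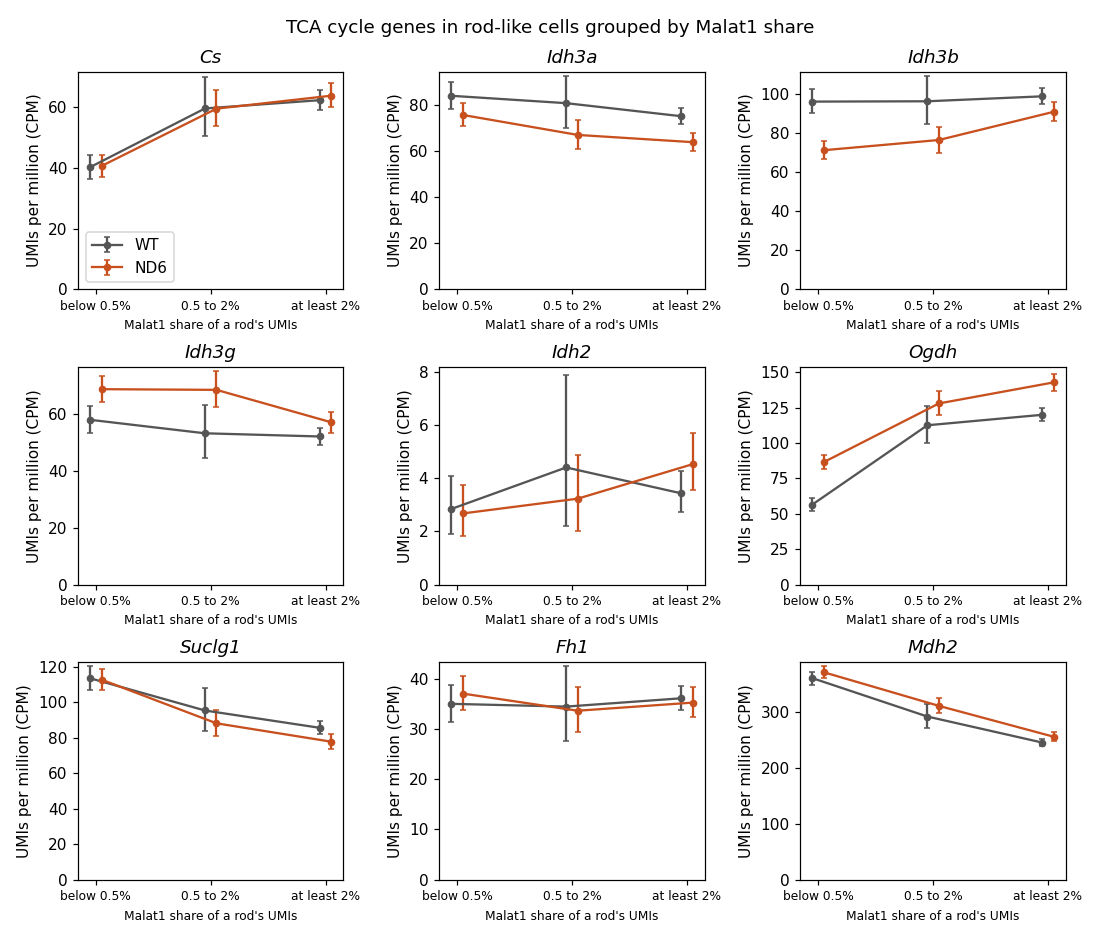
Levels (CPM, vertical axes from 0) of the 9 genes in rod-like cells grouped by the share of *Malat1* in their UMIs; points joined by lines are the WT (grey) and mutant (orange) library and bars are exact Poisson 95% intervals. *Ogdh* and *Cs* are higher and *Mdh2* and *Suclg1* lower in *Malat1*-rich than in *Malat1*-poor rods of both libraries, and mutant *Ogdh* lies above WT in each group.

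In the smaller classes the ratios were larger and their intervals wider. In RPE-like cells the ratios of all 9 genes were below 0, with a median log2 ratio of -0.35 (*Idh3b*, -0.72 to 0.01) beside -0.01 over 9628 genes. Of these, 2 passed the fold, *Idh2* at 42.2 CPM in WT and 17.1 CPM in mutant (77 and 29 UMIs, -1.30, -1.97 to -0.67) and *Idh3a* at 123 and 83.3 CPM (-0.57, -0.88 to -0.26), where 13.5% of genes were that much lower and 12.2% higher. *Mdh2* (-0.35, -0.55 to -0.16) and *Suclg1* (-0.28, -0.51 to -0.05) also had intervals below 0. In rod-poor RPE-like cells 5 genes passed the fold, all lower in mutant, where 13.9% of genes were that much lower and 16.9% higher. *Idh2* was at 65.8 and 27.9 CPM (-1.24, -2.02 to -0.51), *Ogdh* at 105 and 55.9 CPM (-0.90, -1.46 to -0.38), and *Mdh2* at 286 and 184 CPM (-0.64, -0.94 to -0.34). The intervals of *Fh1* (-0.84, -1.90 to 0.13) and *Cs* (-0.71, -1.55 to 0.08) included 0. *Idh3a* no longer passed, at 129.7 and 121 CPM (-0.10), and *Idh3g* turned to 0.27 (63.9 and 77.1 CPM, -0.26 to 0.80). *Idh2* ran from -2.05 with ranked barcodes to -0.64 with every cell weighted equally. The direction of other genes depended on the setting. With cells weighted equally *Suclg1* (0.37), *Fh1* (0.11), and *Idh3a* (0.10) were above 0 and the others below it. With ranked barcodes *Ogdh* (0.38, -0.01 to 0.78) and *Cs* (0.23, -0.35 to 0.80) were above 0 and the others below it. The RPE-like cells of the libraries were unlike in depth, with medians of 2408.5 UMIs in WT and 1114 in mutant. In rod-poor RPE-like cells the medians were 5109.5 and 957 UMIs. Those rod-poor cells also held 1564 and 3999 CPM of *Malat1* and 5395 and 8663 CPM of the rod markers. In all RPE-like cells the pigment cell genes *Pmel* (536 and 141 UMIs) and *Mlana* (210 and 54 UMIs) differed more than *Rgr* (14659 and 14370 UMIs) and *Lrat* (1455 and 1537 UMIs). Of the 8 RPE markers, *Best1* was at 0 in both. At Leiden resolution 2 the RPE-like cells split into a *Ttr*-led cluster (231 WT and 768 mutant cells) and an *Enpp2*-led cluster (172 and 214). With ranked barcodes a *Ttr*-led cluster held 87 and 37 cells and an *Enpp2*-led cluster 9 and 46. The part of these differences in the RPE-like ratios was not tested.

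In amacrine-like cells 2 genes passed the fold, both lower in mutant, where 13.3% of genes were that much lower and 22.2% higher. *Fh1* was at 68.7 CPM in WT and 31.7 CPM in mutant (51 and 59 UMIs, -1.12, -1.68 to -0.55), and *Idh3a* at 167 and 116 CPM (-0.53, -0.86 to -0.20). *Suclg1* was at 177 and 126 CPM (-0.49, -0.81 to -0.17). In rod-poor amacrine-like cells *Fh1* was at 75.4 and 28.7 CPM (-1.39), and *Idh3a* (-0.54) and *Suclg1* (-0.59, -0.98 to -0.20) were also past the fold, against 14.4% of genes lower, while *Idh2* was past it in the other direction (6 and 25 UMIs, 1.09, -0.23 to 2.67), against 25.7% higher. Without the mtDNA limit *Fh1* was at -0.55 and *Idh3a*, at -0.14, no longer passed, and thinned cells gave -1.88 for *Fh1*. The WT class was 82 cells with a median of 7409 UMIs, and the mutant class 302 cells with a median of 3918.5.

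In bipolar-like cells 1 gene passed, *Idh2*, at 9.39 CPM in WT (16 UMIs) and 15.7 CPM in mutant (64 UMIs), 0.74 with an interval of -0.07 to 1.63, where 17.8% of genes were that much higher and 6.50% lower. *Ogdh* (117 and 155 CPM, 0.40, 0.17 to 0.64), *Cs* (49.9 and 67.2 CPM, 0.43, 0.07 to 0.80), and *Idh3g* (69.3 and 88.3 CPM, 0.35, 0.05 to 0.66) had intervals above 0, and *Idh3b* (166 and 127 CPM, -0.38, -0.59 to -0.17) below it. In rod-poor bipolar-like cells 4 genes passed, against 23.7% of genes higher and 7.26% lower. *Cs* (34.4 and 54.6 CPM, 0.67, 0.04 to 1.34), *Idh3g* (76.4 and 116 CPM, 0.61, 0.18 to 1.05), and *Idh2* (9 and 37 UMIs, 0.92, -0.15 to 2.16) were higher in mutant, and *Fh1* (53.5 and 34.6 CPM, -0.63, -1.22 to -0.02) lower. The class is made of 2 clusters in unlike proportion. The smaller, led by *Trpm1* and *Pcp2*, held 27.7% of WT and 7.11% of mutant bipolar-like cells, and in it *Ogdh* was at 94.1 and 202 CPM (36 and 54 UMIs, 1.10, 0.46 to 1.75), while in the larger it was at 123 and 151 CPM (0.29, 0.04 to 0.55). Also past the fold were *Cs* (0.79), *Idh3g* (0.62), and *Idh3b* (-0.57) in the smaller and *Idh2* (0.65) in the larger. Each of their intervals included 0. The share of all genes past the fold in each cluster is not given here.

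Microglia- or macrophage-like cells gave 246 mutant and 496 WT UMIs of the 9 genes together. There 3 genes passed the fold, *Idh3a* (29 WT and 23 mutant UMIs, 0.94, 0.08 to 1.78) and *Fh1* (15 and 11 UMIs, 0.82, -0.44 to 2.04) higher in mutant and *Idh2* (32 and 6 UMIs, -1.14, -2.69 to 0.13) lower, against 20.9% of genes higher and 17.6% lower. In rod-poor cells of the class *Idh3a* was at -0.022 (15 and 6 UMIs), and 5 of the 8 genes with at least 20 UMIs passed the fold, 3 higher (22.4% of genes) and 2 lower (23.8%). Of these 8, *Idh3b* alone had an interval off 0 (11 and 14 UMIs, 1.65, 0.40 to 2.93), while it was at 0.09 in all cells of the class. In the main clustering, Müller-like cells were too few in mutant for more than their levels. With 149 mutant and 268 WT UMIs over the 9 genes, *Mdh2* was at 174 CPM in WT and 213 CPM in mutant, and *Cs* at 54.2 (20 UMIs) and 136 CPM (21 UMIs). The number of Müller-like cells depended on the clustering. It was 38 in WT and 92 in mutant at Leiden resolution 2, and 29 and 91 with genes scaled over both libraries.

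**Figure D5:**
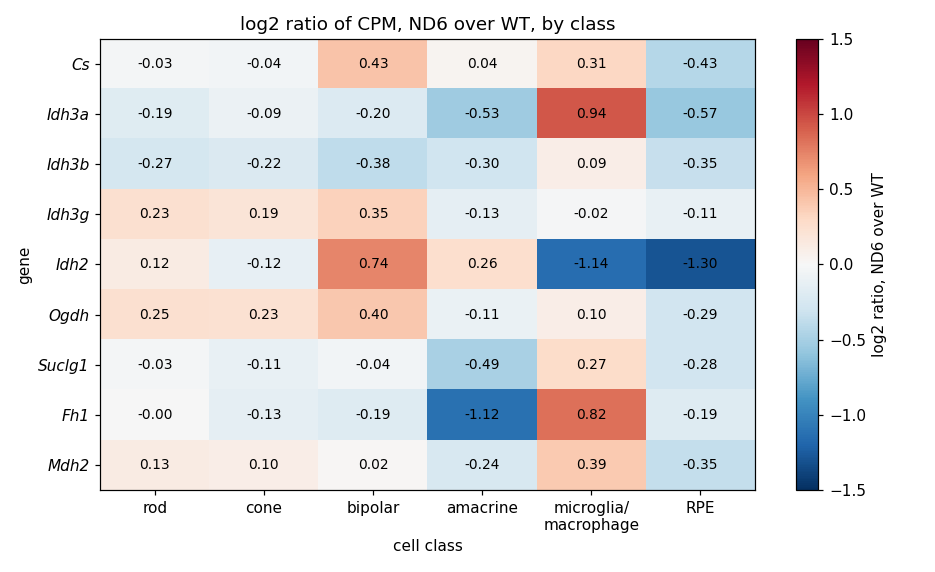
Log2 ratio of CPM, mutant (ND6) over WT, of each gene (rows) in each cell class (columns) with all cells of the class; the colour gives the ratio, red for higher and blue for lower in mutant, and each value is printed. Rods and cones stay within 0.27 of 0, all values in RPE-like cells are below 0, and *Idh2* runs from -1.30 in RPE-like to 0.74 in bipolar-like cells.

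Genes around these 9 were taken from lists of the pathway. Of 10 other TCA cycle enzymes, 1 passed the fold higher and 1 lower in mutant when all cells were pooled. Of all genes, 21.6% were that much higher and 8.78% lower. The list's median log2 ratio was 0.10. The one higher was *Ogdhl* (13.0 and 22.0 CPM, 0.76, 0.63 to 0.89), paralogous to *Ogdh*, and the one lower was *Sdhd* (66.1 and 37.3 CPM, -0.82, -0.90 to -0.75), a membrane anchor of succinate dehydrogenase. The other subunits of that enzyme were at other values, with *Sdha* at 0.22, *Sdhb* at 0.17, and *Sdhc* at 0.04. In rod-like cells *Ogdhl* (0.74) and *Sdhd* (-0.74) were the ones past the fold, against 19.7% of all genes higher and 7.95% lower.

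Of 11 genes with at least 20 UMIs out of 12 for the entry of pyruvate, 2 passed, both higher in mutant, against 21.6% of all genes. They were *Pdk1* (6.51 and 10.8 CPM, 0.73, 0.54 to 0.92), a kinase that shuts off pyruvate dehydrogenase, and *Pdp1* (6.80 and 9.75 CPM, 0.52, 0.33 to 0.71), the phosphatase that turns it back on. The list's median was 0.03, and pyruvate dehydrogenase itself was at 0.00 for *Pdha1* and -0.19 for *Pdhb*. Of 10 cytosolic counterparts and genes of the malate-aspartate shuttle, which carries NADH electrons into mitochondria, 1 passed, against the same 21.6%. It was *Slc25a1* (1.41 and 3.40 CPM, 77 and 214 UMIs, 1.27, 0.89 to 1.66), the mitochondrial citrate carrier. That list's median was 0.07, with *Mdh1* at 0.11 and *Got1* at 0.06.

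Across the 7 named classes in both libraries (14 points, which share libraries and rod RNA), the mean log2(CPM + 10) of the 9 genes ran from 6.03 in WT microglia- or macrophage-like cells to 6.85 in WT amacrine-like cells, with rod-like cells at 6.24 and 6.26. Among 10208 other genes with at least 500 UMIs, those with patterns among the 5 most like this mean included *Pef1* (Pearson r = 0.93), *Grsf1* (0.92), *Hccs* (0.90), and *Rnf14* (0.89). *Grsf1* encodes an RNA-binding protein of mitochondria and *Hccs* the enzyme that attaches heme to cytochrome c. Of the 9 genes, *Idh3g* (0.79) and *Idh3a* (0.75) were nearest to their mean, and *Idh2* (0.20) and *Mdh2* (0.30) farthest.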

How the data were processed

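The submitters' processing notes name Cell Ranger 3.0.2 and mm10. The authors deposited, for each library, an unfiltered UMI count matrix of genes by barcodes without normalization (77958836 WT and 80358255 mutant UMIs). The release of the gene annotation is not given in the sources used here. The members and gene lists were chosen with earlier results of these data known.

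Cells were taken by the study's limits, and its regression of confounders was not repeated. The study aimed at 8000 cells per library, below the number of barcodes that pass. Counts were log-normalized, 3000 variable genes without the 9 genes, the pathway lists, and mtDNA-encoded genes were scaled per library, and Leiden clusters were drawn from 30 principal components with 20 neighbours at resolution 1 (scanpy 1.11.5, scikit-learn 1.9.0, igraph 0.11.9). Clusters of at least 20 cells were named from markers, with more markers of their own class than of others among the leading 10 genes, the highest-ranking of them their own, and at least 3 raised 2-fold. Of the rest, those lacking 3 raised markers of another class were set against the named non-photoreceptor clusters, where 3 raised rod markers made a cluster rod-like. A red blood cell name also needed 1% hemoglobin UMIs in the median cell. This rule was settled after the clusters had been seen. Scrublet called 0 doublets in each library, a sign that it failed, so possible doublets remain.

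UMIs were summed per library and class and divided by the total (CPM). Levels carry exact Poisson, and ratios exact conditional, 95% intervals (SciPy 1.17.1), which cover counting error only. A gene was called between conditions at a log2 ratio of 0.5 among genes with at least 20 UMIs, and between classes at 2-fold in both libraries. The method was tested on simulated data. Genes named are the 9, pathway genes past the fold or compared with a counterpart, the 5 with the pattern most like the mean of the 9 (1 is not reported here), and cluster markers. *Sdha*, *Sdhb*, *Sdhc*, *Pdha1*, *Pdhb*, *Mdh1*, and *Got1* of the lists were named beside them after their values were seen. Alternatives were median-of-ratios scaling, nuclear-genome UMIs only, cells weighted equally or thinned, no mtDNA limit, barcodes ranked by depth, the highest 10% of doublet scores left out, other clusterings, and other minimum UMIs. Rod-poor cells, groups of rods, rods without the hemoglobin-led cluster, and single bipolar-like clusters were added after the data were seen.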

Additional observations from a re-analysis of the deposited data

Results flagged for a closer look

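The ratio of mutant over WT for *Idh3a* pointed in opposite directions in different classes, past the fold and with intervals on either side of 0 in all cells of each class, but not under every alternative. It was 0.94 in microglia- or macrophage-like cells, -0.53 in amacrine-like cells, and -0.57 in RPE-like cells. The difference between classes was not tested, and the first of these rests on 29 WT and 23 mutant UMIs. It was -0.022 in rod-poor cells and -1.35 with ranked barcodes. The RPE-like value was -0.10 in rod-poor cells and 0.10 with cells weighted equally, and the amacrine-like value was -0.14 without the mtDNA limit, so that none of the 3 stayed past the fold throughout.

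The barcodes above the limit of 20% mtDNA-encoded UMIs, 10647 in WT and 3861 in mutant, entered no comparison above other than the ratios given without that limit. In them *Idh2* was higher in mutant by 1.09 on the log2 scale (70 and 54 UMIs, 5.44 and 11.6 CPM, 0.55 to 1.62) and *Ogdh* by 0.75 (49.7 and 83.6 CPM, 0.57 to 0.94). *Fh1* was past the fold the other way (-0.60, -0.98 to -0.24). *Mdh2* (220.4 and 161 CPM, -0.45), *Idh3a* (-0.31), *Suclg1* (-0.27), and *Idh3b* (-0.24) also had intervals below 0. *Cs* (0.28, 0.02 to 0.53) had one above 0, and that of *Idh3g* (0.21) included 0. The share of all genes past the fold in these barcodes is not given here.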

How the results depend on the processing

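No paired analysis was possible because each condition has 1 library and both carry the same single replicate number. The median of the 9 genes over all cells, -0.05, became 0.059 with cells weighted equally, 0.039 with cells thinned to the lowest depth kept, and 0.069 without the limit on mtDNA-encoded UMIs, all within 0.1 of 0. In rods of at most 1000 UMIs the median was 0.27, and in the other groups of rods and under the other settings it stayed within its interval. The count of 0 genes past the fold over all cells held under each alternative run. The count in cone-like over rod-like cells was 0 as reported, 1 with cells weighted equally (*Idh3a*), 1 at Leiden resolution 2 (*Idh2*), 2 with ranked barcodes, and 2 in rod-poor cells (*Idh3a* and *Idh2* in both). Of 815 values of 1 gene in 1 class under an alternative, 714 stayed within the interval of the reported value, 97 moved out of it, and 4 called values changed sign. These were *Idh3a* in microglia- or macrophage-like cells (-1.35 with ranked barcodes and -0.022 in rod-poor cells), *Fh1* there (-0.028 with cells weighted equally), and *Idh3a* in RPE-like cells (0.10 with cells weighted equally). The causes were not tested. Without the mtDNA limit no Müller-like cluster was named, so no value could be given. The variation from mouse to mouse could not be estimated.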
